A study of Rattus norvegicus with 25 samples.

Results

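Rats received 1 of 2 preparations of thymus after a controlled cortical impact (CCI), a pneumatic or magnetic blow to the exposed cortex that is a standard model of traumatic brain injury, and hippocampal RNA was sequenced. The question was how the hippocampal transcriptome with the nuclear preparation, labelled thymus nuclear factor (TNF-CCI, 5 libraries), stood against that with the cytosolic preparation, labelled thymus cytosolic factor (TCF-CCI, 5 libraries). These 10 libraries were taken by their column names from a series of 25, and all genes that could be tested enter the comparison. Here TNF names the thymus preparation, not the cytokine, whose gene is written Tnf. The other 15 libraries are 5 of a further thymus preparation after CCI (TD-CCI), 5 of vehicle after CCI (Vehicle-CCI) and 5 of vehicle with a sham operation (Vehicle-sham).

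All animals were male Sprague-Dawley rats of 6 to 7 weeks, an outbred stock, and every group of the main comparison carried the injury. For TCF-CCI the injury is given by the source name, while its treatment label names the preparation alone. Dose, route and time after injury are not given in the sources used here, and nothing states whether the 5 libraries of a group came from separate animals, so every p-value rests on the variation among these libraries, which may be technical. A comparison of 2 tissue extracts compares mixtures, and which molecules they hold is not stated.

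After an impact, microglia, the resident macrophages of the brain, turn phagocytic, and astrocytes raise their intermediate filament Gfap and become reactive. Both cell types then express complement, antigen presentation and interferon-induced genes, while neurons lose or gain activity-dependent transcripts. In RNA from a whole tissue, fewer cells of a type and less RNA per cell cannot be told apart.

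Of 34322 genes in the count table, 21064 had enough counts to be tested. No gene differed between TNF-CCI and TCF-CCI at an adjusted p under 0.05 (0 of 21064, percent called 0, edgeR's quasi-likelihood test with Benjamini-Hochberg adjustment), and the smallest adjusted p was 0.556. At an unadjusted p under 0.05 stood 1079 genes (5.12%), against 1053 that the threshold alone would give. Of these, 644 were higher (3.06%) and 435 were lower (2.07%) in TNF-CCI. The 5 TNF-CCI libraries lay wholly above or wholly below the 5 TCF-CCI libraries for 257 genes (1.22%), 130 of them higher (0.617%) and 127 lower (0.603%). On the same counts DESeq2 called 6 genes, all lower in TNF-CCI, and limma's voom with library weights called 12, all lower. With TNF-CCI 3, 4 and 5 and TD-CCI 5 left out, edgeR called 19, of which 18 were higher and 13 rested on a single high library of the 2 TNF-CCI libraries that remained. Without Vehicle-sham 2 and 3 edgeR called 0, but its smallest adjusted p was 0.0593. Without TNF-CCI 2 it also called 0, with a smallest adjusted p of 0.0738.

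The 95% interval of the log2 fold change had a median half-width of 0.498. For 15588 genes (74%) that interval lay within 1 log2 unit of 0 on both sides, so for these a larger difference is outside it. The median log2 fold change over all tested genes was 0.02, and 52.9% lay above 0.

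**Figure D1:**
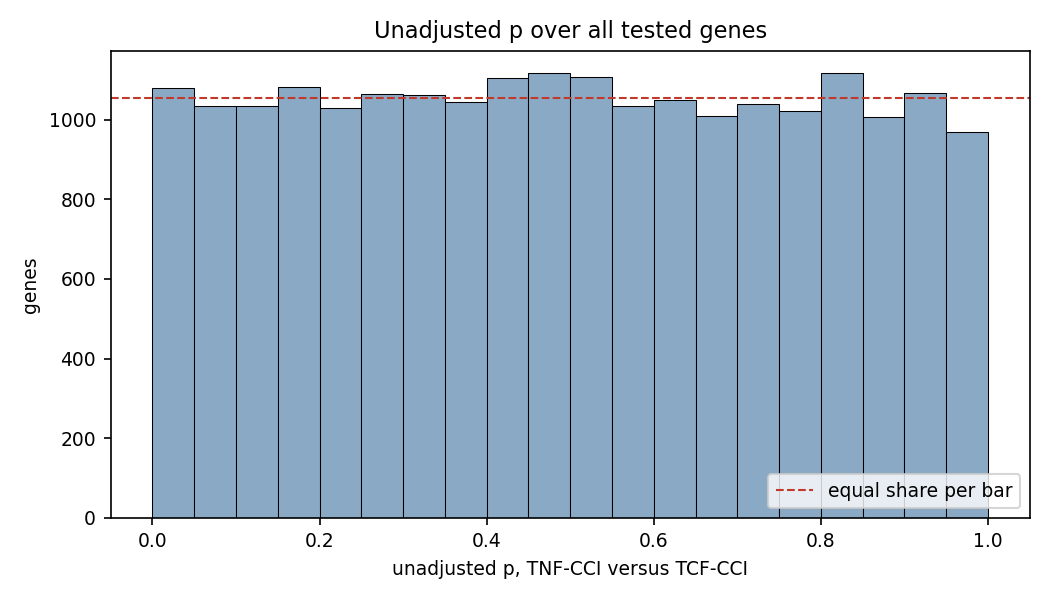
Number of genes (vertical axis) in each of 20 equal ranges of the unadjusted p for TNF-CCI versus TCF-CCI (horizontal axis), with a dashed line at an equal share per bar. The first bar holds 1079 genes and the second 1033, so the distribution is close to flat.

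The libraries differed in depth and make-up before any gene is considered. TNF-CCI libraries held 38300000 ± 3950000 counts and TCF-CCI libraries 30900000 ± 2240000 counts (SD, n = 5 each), with no overlap (exact two-sided permutation p = 0.00794, the smallest that 5 against 5 allows, 0.0159 adjusted over 2 measures). The mitochondrial rRNA share was 3.29, 10.9, 4.17, 3.02 and 2.95% in TNF-CCI 1 to 5, against 9.12, 9.65, 6.5, 6.55 and 6.01% in TCF-CCI 1 to 5. With counts thinned to the lowest library total, 0 genes were called and 1005 had an unadjusted p under 0.05. Without TNF-CCI 2 the rRNA share did not overlap between the groups, but over all 10 libraries the exact permutation p was 0.143. Of 14 lists of glial and immune genes, TNF-CCI 1 had the highest mean level of the 10 libraries in 9 and TCF-CCI 5 the lowest in 12. The lists that TNF-CCI 1 did not lead were border macrophages and neutrophils (TNF-CCI 2 highest), lymphocytes (TNF-CCI 5), resting astrocytes (TNF-CCI 4) and myelin (TCF-CCI 1). The titles also carry a number whose meaning is not stated: it is 10, 20, 72, 80 and 88 in TNF-CCI 1 to 5, against 18, 28, 36, 56 and 66 in TCF-CCI 1 to 5. No TCF-CCI library has a number above 70, so for that range the preparation and the number cannot be told apart. Levels below are in CPM, a library's counts scaled to a total of 1000000. Markers of hippocampal neurons were present in all 10 libraries. Prox1, which marks dentate granule cells, lay at 11.6 to 24.6 CPM in TNF-CCI and 11.4 to 18.4 CPM in TCF-CCI. Camk2a, the excitatory neuron kinase, lay at 1400 to 3400 CPM in TNF-CCI and 1540 to 2810 CPM in TCF-CCI.

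Genes of reactive astrocytes were higher in TNF-CCI, though none passed the test. Of 20 tested members 19 had a log2 fold change above 0 and 8 had an unadjusted p under 0.05, all 8 higher, and the list's median was 0.87. Over all tested genes 52.9% lay above 0, and at an unadjusted p under 0.05 3.06% were higher and 2.07% lower. These shares are the background for the counts of every list below. Gfap stood at 7940, 1970, 2780, 2530 and 5790 CPM in TNF-CCI, against 2620, 1190, 2330, 2360 and 788 CPM in TCF-CCI. The highest 2 values are TNF-CCI 1 and TNF-CCI 5 and the lowest is TCF-CCI 5, with the remaining 7 libraries overlapping. The log2 fold change of Gfap was 1.18 ± 0.39 (SE, edgeR adjusted p = 0.937). Vim, another intermediate filament of reactive astrocytes, had 319, 180, 199, 90.6 and 431 CPM in TNF-CCI, against 239, 31.3, 260, 70.2 and 32.9 CPM in TCF-CCI, so its groups overlapped more (log2 fold change 0.94 ± 0.53). Without TNF-CCI 1 the list's median was 0.57, and without both TNF-CCI 1 and TCF-CCI 5 it was 0.40. Set against the shared Vehicle-CCI libraries, the list's median log2 fold change was 0.39 for TNF-CCI and -0.32 for TCF-CCI.

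Serpina3n, a secreted protease inhibitor that marks reactive astrocytes, had a log2 fold change of 2.93 ± 0.92, but 7.03 CPM in TNF-CCI 5 stood far above the other 9 libraries, none over 1.05 CPM. Timp1, an inhibitor of matrix metalloproteinases, was 62.3 CPM in TNF-CCI 1 and 6.47 to 10.6 CPM in the other TNF-CCI libraries, against 3.19 to 6.92 CPM in TCF-CCI. Genes of resting astrocytes differed less. Their median was 0.27, or 0.13 without TCF-CCI 2, with 14 of 16 above 0 and 1 at an unadjusted p under 0.05. That gene was Glul, the glutamine synthetase of astrocytes, at 951, 636, 946, 964 and 989 CPM in TNF-CCI, against 723, 409, 701, 739 and 628 CPM in TCF-CCI (log2 fold change 0.49 ± 0.23, edgeR adjusted p = 0.953). Aqp4, their water channel, was 0.41 ± 0.23 higher on the log2 scale, and Slc1a2, their glutamate transporter, 0.27 ± 0.33.

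Genes of activated microglia were likewise higher without passing the test. Of 22 members 20 lay above 0, 10 had an unadjusted p under 0.05, all higher, and the median was 0.66, or 0.46 without TNF-CCI 1 and TCF-CCI 5. Against the same Vehicle-CCI libraries the median was 0.24 for TNF-CCI and -0.44 for TCF-CCI. Igf1, a growth factor that activated microglia make, had 61.5, 55, 28, 34.2 and 71.7 CPM in TNF-CCI, against 26.2, 16.9, 20.4, 26.7 and 10.4 CPM in TCF-CCI. Every TNF-CCI library was above every TCF-CCI library, and the log2 fold change was 1.32 ± 0.36 (edgeR adjusted p = 0.817). Igf1 lies on chromosome 7 at 22282895 to 22361972 of mRatBN7.2, the build of the count table. In Vehicle-CCI it spanned 12.7 to 51.5 CPM, a range that overlaps both groups.

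Cd68, the lysosomal membrane protein used to stain phagocytic microglia, had 14.1, 6.34, 5.9, 6.22 and 12.7 CPM in TNF-CCI, against 7.25, 2.34, 6.36, 3.27 and 0.864 CPM in TCF-CCI. The groups overlapped, and the log2 fold change was 1.17 ± 0.53 (edgeR adjusted p = 0.953). Tyrobp, the adaptor of microglial receptors such as Trem2, had 64.3, 39.8, 27.3, 46.8 and 42.5 CPM in TNF-CCI, against 30.1, 16.5, 24.1, 28.6 and 13.7 CPM in TCF-CCI. Only TNF-CCI 3 fell inside the TCF-CCI range, and the gene differed by 0.97 ± 0.30 on the log2 scale (edgeR adjusted p = 0.907). Gpnmb, a glycoprotein of lipid-laden phagocytes, ran from 18.8 to 94.9 CPM in TNF-CCI and from 3.72 to 75.7 CPM in TCF-CCI. All 10 tested genes of resting microglia lay above 0, with a median of 0.42 (0.26 without TNF-CCI 1) and 1 at an unadjusted p under 0.05, which was Aif1, the calcium-binding protein known as Iba1. Tmem119, a surface marker of resident microglia, behaved differently across libraries. It stood at 12.3, 10.5 and 14.1 CPM in TNF-CCI 3 to 5, while TNF-CCI 1 and 2, at 5.98 and 4.88 CPM, lay within the 2.91 to 10.1 CPM of TCF-CCI. In a fit of only the libraries numbered up to 70 its log2 fold change was -0.19, against 0.62 in the fit of all.

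**Figure D2:**
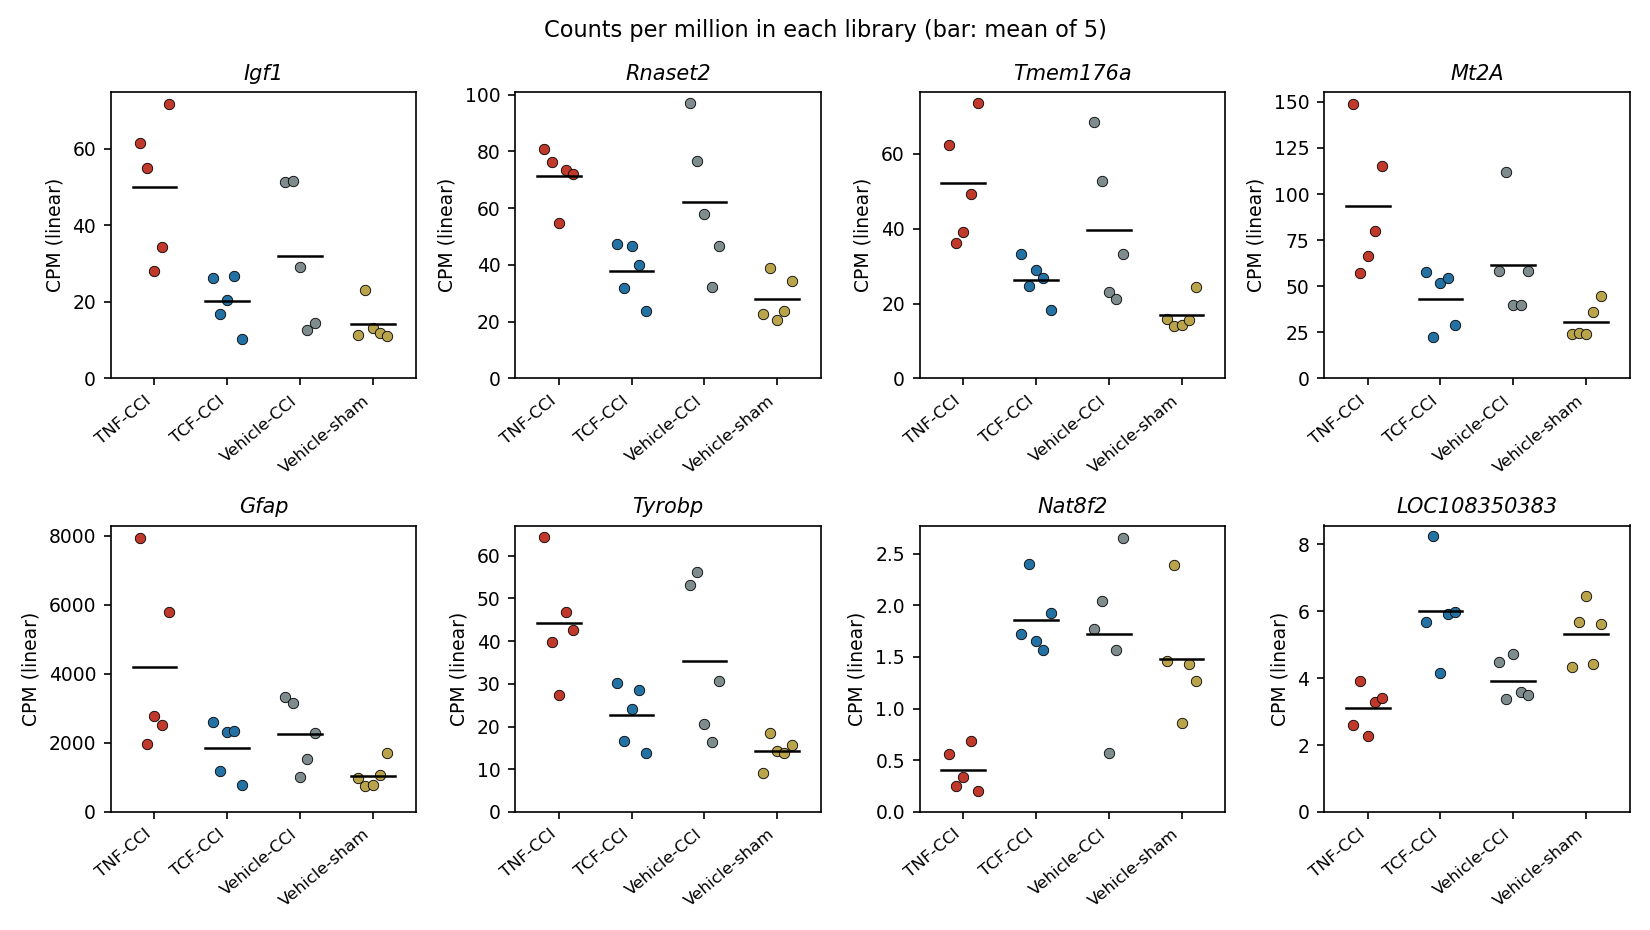
CPM (vertical axes, linear) of 8 genes in every library of TNF-CCI, TCF-CCI, Vehicle-CCI and Vehicle-sham (horizontal axes), each point 1 library and each bar the mean of 5. Igf1, Rnaset2, Tmem176a, Nat8f2 and LOC108350383 do not overlap between TNF-CCI and TCF-CCI, whereas Gfap, Tyrobp and Mt2A do.

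2 further genes separated the groups. Rnaset2, a lysosomal ribonuclease, had 81, 76.1, 54.7, 73.6 and 72 CPM in TNF-CCI, against 47.5, 31.7, 46.8, 39.8 and 23.6 CPM in TCF-CCI (log2 fold change 0.92 ± 0.24). Tmem176a, a membrane protein of myeloid cells, had 62.3, 36.2, 39.2, 49.3 and 73.5 CPM in TNF-CCI, against 33.1, 24.6, 29, 26.9 and 18.4 CPM in TCF-CCI (0.98 ± 0.26). Both had an edgeR adjusted p of 0.817. For both genes, Vehicle-CCI spanned a wider range than either group, 32.2 to 97.1 CPM for Rnaset2 and 21.3 to 68.5 CPM for Tmem176a. Their log2 fold changes over the shared Vehicle-CCI libraries were 0.20 and 0.39 for TNF-CCI, against -0.71 and -0.59 for TCF-CCI.

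Complement genes, which tag debris and synapses for removal, had a median of 0.57, with 17 of 18 above 0 and 4 at an unadjusted p under 0.05. C1qa, a chain of the initiating complex, had 86.1, 65, 47.7, 71.8 and 72.8 CPM in TNF-CCI, against 70.4, 24.3, 55.9, 46.2 and 23.8 CPM in TCF-CCI, with overlap. C1qb differed by 0.89 ± 0.36 and C3, the central component, by 0.96 ± 0.51 on the log2 scale. Serping1, the inhibitor of the initiating proteases, had the smallest p of the list, at 91.4, 23, 25.7, 30.8 and 85.8 CPM in TNF-CCI, against 33.8, 6.89, 28.1, 17.4 and 2.96 CPM in TCF-CCI (1.53 ± 0.56, edgeR adjusted p = 0.946). In Serping1 too the top libraries were TNF-CCI 1 and TNF-CCI 5 and the bottom one TCF-CCI 5.

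The medians of the antigen presentation lists were lower without TNF-CCI 1, though not every member rested on that library. The 8 tested MHC class II genes all lay above 0, with a median of 0.80 and 2 at an unadjusted p under 0.05, but without TNF-CCI 1 the median was 0.14. Cd74, the class II invariant chain, had 116, 23.4, 8.24, 13.4 and 32.1 CPM in TNF-CCI, against 37.5, 9.26, 27.2, 10.3 and 6.44 CPM in TCF-CCI. Its log2 fold change was 1.09 ± 0.65, and only TNF-CCI 1 was above the highest TCF-CCI library. RT1-Ba, a class II alpha chain, differed by 1.5 ± 0.63 and RT1-Da, another, by 1.42 ± 0.64. RT1-Ba had 21.5, 13.4, 2.05, 8.01 and 9.19 CPM in TNF-CCI, against 5.73, 2.91, 5.27, 4.27 and 0.996 CPM in TCF-CCI. With any 1 of the 10 libraries left out, the lowest log2 fold change was 1.09 for RT1-Ba, 0.66 for RT1-Da and 0.09 for Cd74. MHC class I genes, expressed by most cells, had a median of 0.35, with 14 of 14 above 0 and 1 at an unadjusted p under 0.05, and without TNF-CCI 1 the median was 0.16.

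Interferon-induced genes all lay above 0. Of 19 tested members 5 had an unadjusted p under 0.05 and the median was 0.82, and it stayed between 0.66 and 1.06 when any 1 of the 10 libraries was left out. For this list too TNF-CCI 1 was the highest and TCF-CCI 5 the lowest library, and leaving out 1 library at a time does not remove both. Ifitm3, a membrane protein that blocks virus entry, had 29.1, 16.1, 13.7, 19.8 and 23.2 CPM in TNF-CCI, against 14.1, 4.86, 9.69, 11.2 and 2.89 CPM in TCF-CCI. Only TNF-CCI 3 lay within the TCF-CCI range, and the log2 fold change was 1.25 ± 0.42 (edgeR adjusted p = 0.937). Ifit2, an RNA-binding antiviral protein, had 11, 11.4, 6.47, 12.3 and 9.38 CPM in TNF-CCI, against 6.72, 4.04, 4.56, 6.24 and 4.35 CPM in TCF-CCI (0.96 ± 0.35). Ifit1, a relative that binds foreign RNA caps, varied within both groups, at 6.56, 0.112, 1.5, 5.66 and 4.12 CPM in TNF-CCI, against 0.199, 0.243, 0.257, 3.15 and 0.166 CPM in TCF-CCI (2.15 ± 1.12). Mx1, a GTPase against viruses, lay at 15.7 to 57.5 CPM in TNF-CCI and 13.5 to 38 CPM in TCF-CCI. The list's median over the shared Vehicle-CCI libraries was 0.38 for TNF-CCI and -0.41 for TCF-CCI, and in Vehicle-sham its summed level ran from 194 to 802 CPM.

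The interferon list is shown with promoter sequence because its members lay on the same side, as did those of resting microglia, MHC class I and MHC class II. In the 250 bases before the start of each gene (RefSeq, GRCr8) the core of the interferon-stimulated response element, GAAA, 2 bases of any kind and GAAA,, was searched on both strands. It was present for 9 of the 13 members with a promoter entry (69.2%) and for 902 of 27457 promoters of that length (3.29%). The list was made up of genes known as interferon-induced. The share therefore describes how the list was chosen and not the difference between TNF-CCI and TCF-CCI. Ifitm3 (chr1:205541759-205542008, minus strand), Irf7 (chr1:205800024-205800273, minus strand), a transcription factor of the pathway, and Ifit3 (chr1:241527076-241527325, plus strand) each held 1 match, shown in capitals, and in Irf7 and Ifit3 the match is on the opposite strand. A match describes the letters and is not evidence of binding in these libraries.
Ifitm3: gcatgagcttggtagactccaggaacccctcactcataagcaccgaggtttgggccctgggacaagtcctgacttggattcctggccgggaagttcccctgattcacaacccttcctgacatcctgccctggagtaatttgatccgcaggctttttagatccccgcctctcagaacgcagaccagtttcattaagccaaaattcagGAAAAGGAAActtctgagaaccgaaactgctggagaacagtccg
Irf7: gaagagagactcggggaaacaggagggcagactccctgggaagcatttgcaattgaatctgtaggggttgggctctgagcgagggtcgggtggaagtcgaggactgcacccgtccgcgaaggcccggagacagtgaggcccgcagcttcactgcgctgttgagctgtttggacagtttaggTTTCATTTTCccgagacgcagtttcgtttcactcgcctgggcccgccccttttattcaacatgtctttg
Ifit3: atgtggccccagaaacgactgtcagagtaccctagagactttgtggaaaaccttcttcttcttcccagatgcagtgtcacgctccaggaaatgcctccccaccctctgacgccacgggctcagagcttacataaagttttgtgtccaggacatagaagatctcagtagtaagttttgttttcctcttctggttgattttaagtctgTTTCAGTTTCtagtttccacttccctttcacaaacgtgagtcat

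Cytokines and chemokines had a median of 0.51, with 18 of 19 above 0 and 4 at an unadjusted p under 0.05. Il1b and Tnf, the classical inflammatory cytokines, were low, between 0.211 and 1.02 CPM in TNF-CCI and between 0.273 and 0.662 CPM in TCF-CCI, and their log2 fold changes of 0.25 ± 0.36 and 0.17 ± 0.39 were within error of 0. Tgfb1, an anti-inflammatory cytokine, had 27.9, 8.5, 9.19, 7.02 and 20.1 CPM in TNF-CCI, against 11.8, 3.98, 10, 7.21 and 3.85 CPM in TCF-CCI (0.98 ± 0.38). Il33, an alarmin of oligodendrocytes and astrocytes, had 69.1, 73.6, 41.8, 56.9 and 66.8 CPM in TNF-CCI, against 53.1, 42.5, 37.9, 49.8 and 36.8 CPM in TCF-CCI (0.49 ± 0.20). Tnfsf13, the B cell survival factor APRIL, had 34.8, 31.1, 25.8, 30.4 and 39.4 CPM in TNF-CCI, against 26.4, 17.6, 19.8, 25.4 and 16.4 CPM in TCF-CCI (0.61 ± 0.17, edgeR adjusted p = 0.817). Of 13 listed lymphocyte genes 7 could be tested, with a median of 0.87, or 0.57 without TNF-CCI 1, 6 above 0 and 2 at an unadjusted p under 0.05. Cd8a, the coreceptor of cytotoxic T cells, lay at 0.256 to 1.09 CPM in TNF-CCI and 0.0908 to 0.497 CPM in TCF-CCI (1.58 ± 0.66). Cd3e, a chain of the T cell receptor complex, spanned 0.0256 to 2.07 CPM in TNF-CCI and 0 to 1.19 CPM in TCF-CCI. Cd4, a coreceptor of helper T cells that rat microglia and macrophages also express, averaged 15.6 CPM in TNF-CCI and 10.1 CPM in TCF-CCI and made up most of the list's summed level (0.63 ± 0.47), while each of the other 6 averaged under 1 CPM in both groups.

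**Figure D3:**
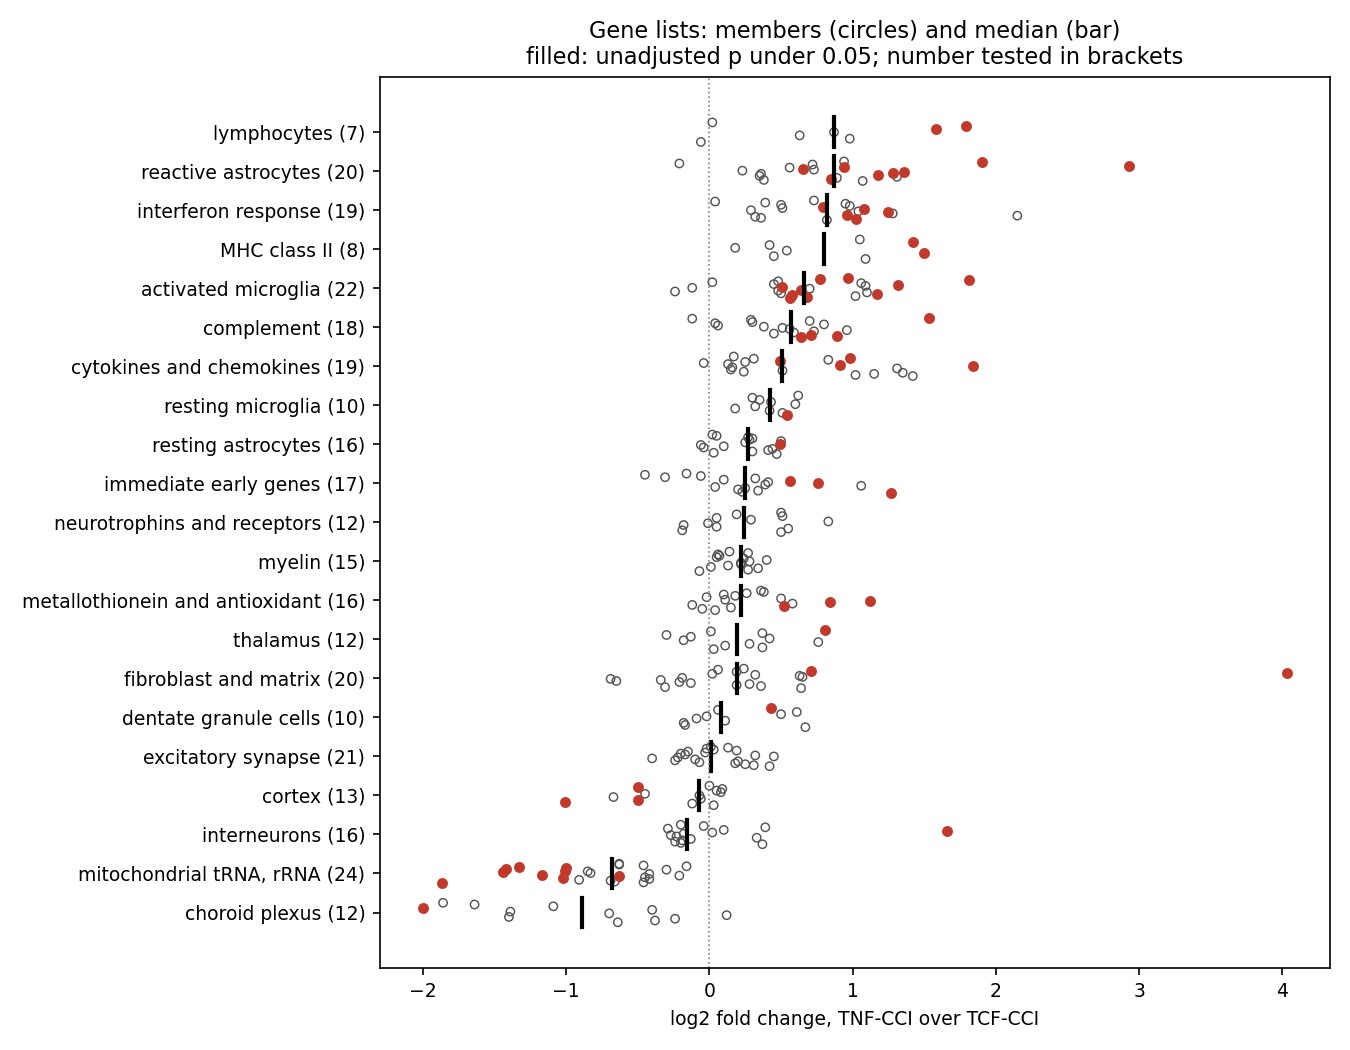
Log2 fold change of TNF-CCI over TCF-CCI (horizontal axis) for each tested member of 21 gene lists (rows), with filled circles at an unadjusted p under 0.05 and a bar at the median. Medians run from -0.89 for choroid plexus to 0.87 for reactive astrocytes and lymphocytes, against 0.02 over all genes.

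Metallothioneins are small proteins that bind zinc and copper and are induced by metals and stress, and Mt1 and Mt2A were higher in TNF-CCI without passing the test. Mt2A had 149, 57.1, 66.3, 80 and 115 CPM in TNF-CCI, against 57.7, 22.6, 51.9, 54.6 and 28.9 CPM in TCF-CCI. Only TNF-CCI 2 lay inside the TCF-CCI range, by a margin of less than 1 CPM, and the log2 fold change was 1.12 ± 0.31 (edgeR adjusted p = 0.817). Mt1 had 14.8, 10.4, 5.4, 7.3 and 10.8 CPM in TNF-CCI, against 6.03, 4.1, 7.52, 5.54 and 4.05 CPM in TCF-CCI (0.84 ± 0.27). The wider list of 16 metallothionein and antioxidant genes had a median of 0.22, with 13 above 0 and 3 at an unadjusted p under 0.05. Over the shared Vehicle-CCI libraries the log2 fold change of Mt2A was 0.60 for TNF-CCI and -0.52 for TCF-CCI. The core of the metal response element, TGCACNC or TGCGCNC, on either strand was present in the 250 bases before the start of both genes and in 5829 of 27457 promoters of that length (21.2%). In the wider list it was present for 4 of the 14 members with a promoter entry (28.6%), a share near that of all promoters. Mt2A (chr19:10838709-10838958, minus strand, RefSeq GRCr8) held 4 matches and Mt1 (chr19:10832976-10833225, minus strand) held 6, given in capitals.
Mt2A: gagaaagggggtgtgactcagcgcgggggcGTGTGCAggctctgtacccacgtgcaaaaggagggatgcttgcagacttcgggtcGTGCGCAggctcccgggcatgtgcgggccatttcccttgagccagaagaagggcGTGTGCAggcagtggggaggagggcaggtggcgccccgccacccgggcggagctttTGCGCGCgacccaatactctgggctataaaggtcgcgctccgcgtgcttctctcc
Mt1: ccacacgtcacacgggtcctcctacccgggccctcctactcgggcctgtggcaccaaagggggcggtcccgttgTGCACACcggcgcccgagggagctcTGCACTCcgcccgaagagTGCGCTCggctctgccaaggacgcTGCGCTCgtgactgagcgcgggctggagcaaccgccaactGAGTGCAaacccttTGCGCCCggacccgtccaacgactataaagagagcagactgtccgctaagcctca

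Neuronal genes as groups stood near 0. The excitatory synapse list had a median of 0.01, with 11 of 21 above 0 and 0 at an unadjusted p under 0.05, and synaptic vesicle genes a median of 0.04. Camk2a differed by 0.42 ± 0.30, Gria2, a subunit of the AMPA receptor, by -0.24 ± 0.21 and Gria4, another, by -0.40 ± 0.23. Interneuron genes had a median of -0.16. Gad1 and Gad2, the enzymes that make GABA, differed by -0.13 ± 0.23 and 0.33 ± 0.38, and Kcnc2, a potassium channel of fast-spiking interneurons, by -0.27 ± 0.20. Dentate granule genes had a median of 0.08, with 1 of 10 at an unadjusted p under 0.05, the cation channel Trpc6 at 0.43 ± 0.19. In that list C1ql2, a synaptic organiser of mossy fibres, differed by 0.67 ± 0.37, and the guidance molecule Sema5a by 0.61 ± 0.34.

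Several activity-dependent genes were highest in TNF-CCI 1. Arc, which regulates AMPA receptor uptake, had 237, 29.5, 48.6, 42.2 and 63.1 CPM in TNF-CCI, against 31.8, 28.7, 46.4, 35.4 and 31.6 CPM in TCF-CCI (1.27 ± 0.40, edgeR adjusted p = 0.907). Fos, the activity-induced transcription factor, had 20.2, 11.3, 8.13, 5.89 and 12.4 CPM in TNF-CCI, against 8.74, 5.22, 10.7, 4.94 and 4.55 CPM in TCF-CCI (0.76 ± 0.28). Over 17 immediate early genes 13 lay above 0, 3 had an unadjusted p under 0.05 and the median was 0.25, or 0.16 without TNF-CCI 1. Npy, a neuropeptide of interneurons, was likewise high there, with 94.8 CPM in TNF-CCI 1, 5.67 to 14.9 CPM in the other TNF-CCI libraries and 4.54 to 11.5 CPM in TCF-CCI. Bdnf, the neurotrophin that supports plasticity, had 67.2, 33, 22.2, 25.4 and 23.9 CPM in TNF-CCI, against 16.9, 22.5, 23.8, 30.4 and 28.1 CPM in TCF-CCI. Apart from TNF-CCI 1 and 2 its groups coincided, and its log2 fold change was 0.50 ± 0.27 (edgeR adjusted p = 0.985). Its receptor Ntrk2 differed by 0.29 ± 0.26 and Gfra1, the receptor of the factor Gdnf, by 0.55 ± 0.29, in a list of 12 neurotrophin genes with a median of 0.24 and 0 at an unadjusted p under 0.05.

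Myelin genes had a median of 0.22, or 0.10 without TNF-CCI 5, with 14 of 15 above 0 and 0 at an unadjusted p under 0.05. Mbp, a main myelin protein, had 4160 to 9180 CPM in TNF-CCI and 3670 to 8390 CPM in TCF-CCI, and Cnp, an enzyme of myelin, differed by 0.34 ± 0.30 on the log2 scale. Fibroblast and matrix genes had a median of 0.19, or 0.04 without TCF-CCI 2, with 13 of 20 above 0. The fibrillar collagens Col1a1 and Col1a2 differed by 0.36 ± 0.25 and 0.19 ± 0.34. Mgp, an inhibitor of calcification, differed by 0.71 ± 0.32, with 12.6 CPM in TCF-CCI 4 as the outlying library of its group.

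**Figure D4:**
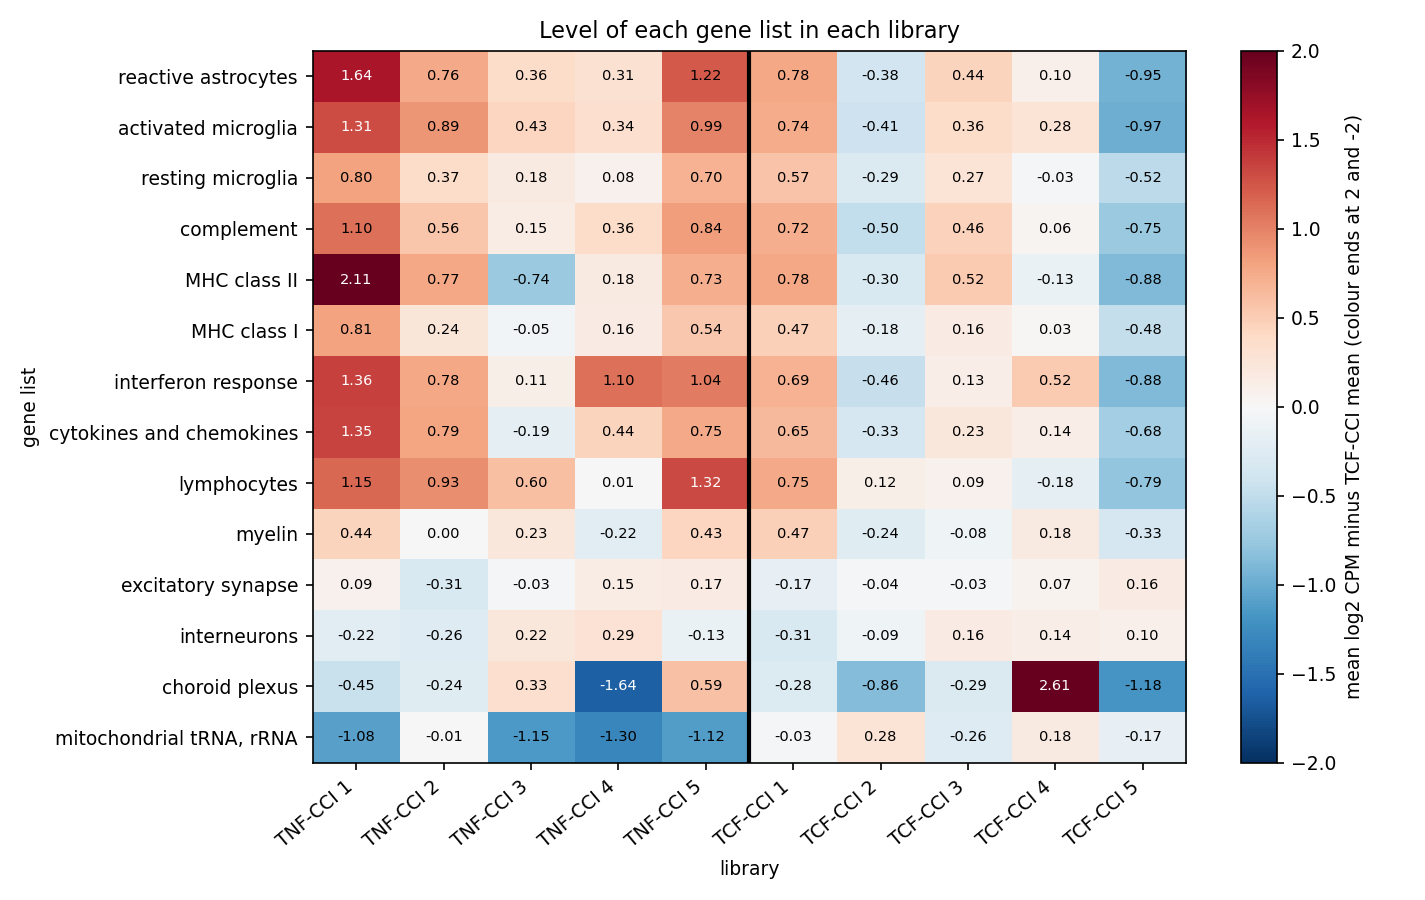
Mean log2 CPM of each gene list (rows) in each of the 10 libraries (columns, TNF-CCI left of the line, TCF-CCI right), minus the mean of the 5 TCF-CCI libraries, with red higher and blue lower. TNF-CCI 1 is the highest and TCF-CCI 5 the lowest library in the first 8 rows, TCF-CCI 4 stands out for choroid plexus, and 4 of 5 TNF-CCI libraries are low for mitochondrial tRNA and rRNA.

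A few genes outside these lists were higher in every TNF-CCI library. Acox2, a peroxisomal oxidase of branched fatty and bile acids, had 7.59, 3.54, 4.79, 6.25 and 3.71 CPM in TNF-CCI, against 3.48, 2.61, 0.741, 2.42 and 0.631 CPM in TCF-CCI (1.39 ± 0.44). Acsm5, an acyl-CoA synthetase of mitochondria, had 15.7, 11.1, 12.8, 11.6 and 13.2 CPM in TNF-CCI, against 9.73, 7.62, 4.82, 7.21 and 3.29 CPM in TCF-CCI (0.98 ± 0.30). Ccn1, a matrix-associated signalling protein, lay at 2.45 to 4.77 CPM in TNF-CCI and 1.06 to 2.32 CPM in TCF-CCI, and Adamts16, a matrix protease, at 1.66 to 2.85 CPM in TNF-CCI and 0.656 to 1.40 CPM in TCF-CCI. 2 genes of small p had 1 overlapping library in TNF-CCI. Apod, a lipid carrier, had 199, 113, 153, 199 and 201 CPM in TNF-CCI, against 113, 79.9, 70.2, 128 and 67.9 CPM in TCF-CCI (0.91 ± 0.23). Cyp1b1, a cytochrome P450 of vessel walls, had 11.5, 6.2, 3.58, 4.71 and 6.58 CPM in TNF-CCI, against 4.54, 2.06, 3.02, 1.48 and 1.06 CPM in TCF-CCI (1.42 ± 0.36). None of these 6 passed the test in edgeR, the adjusted p being 0.817 for Apod and Cyp1b1 and higher for the other 4.

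The smallest p-values of all belonged to genes that were lower in TNF-CCI, mostly loci named by number alone. LOC108350383, a long non-coding RNA in RefSeq on chromosome 3 at 47821438 to 47837682 of mRatBN7.2, had 2.61, 3.9, 2.26, 3.3 and 3.4 CPM in TNF-CCI, against 5.69, 8.26, 4.16, 5.91 and 5.98 CPM in TCF-CCI. Its groups did not overlap and its log2 fold change was -0.95 ± 0.20 (unadjusted p 7.37e-05, edgeR adjusted p = 0.556), while DESeq2 gave an adjusted p of 0.0348. Vehicle-CCI, at 3.37 to 4.71 CPM, overlapped both groups. Nat8f2, a member of the N-acetyltransferase 8 family, had 0.561, 0.253, 0.342, 0.691 and 0.206 CPM in TNF-CCI, against 1.72, 2.4, 1.65, 1.57 and 1.93 CPM in TCF-CCI. It did not overlap either (-2.17 ± 0.49, edgeR adjusted p = 0.556, DESeq2 adjusted p = 0.0369), and Vehicle-CCI spanned 0.569 to 2.65 CPM.

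LOC102552995, a non-coding RNA, had 0.707, 0.926, 0.553, 0.41 and 0.144 CPM in TNF-CCI, against 1.69, 1.61, 1.23, 1.42 and 1.73 CPM in TCF-CCI (-1.49 ± 0.34), and both DESeq2 and voom called it, at adjusted p of 0.0369 and 0.0283. Its level also went with the title number. The 4 libraries of the series numbered above 70, 3 of them TNF-CCI, had 0.144 to 0.553 CPM, against 0.667 to 2.19 CPM in the other 21. LOC102556681 had 2.56, 3.2, 2.66, 2.13 and 2.29 CPM in TNF-CCI, against 3.87, 16.3, 2.76, 10.6 and 7.84 CPM in TCF-CCI, so that 4 of 5 TNF-CCI libraries lay below every TCF-CCI library. Its log2 fold change was -1.69 ± 0.37 (unadjusted p 0.000103, edgeR adjusted p = 0.556, DESeq2 adjusted p = 0.0369) and ran from -1.91 to -1.30 with any 1 of the 10 libraries left out. Igfn1, which encodes a muscle protein with immunoglobulin and fibronectin domains, had 0.128 to 3.03 CPM in TNF-CCI, against 2.38 to 15.9 CPM in TCF-CCI (-1.91 ± 0.53). Among coding genes of higher level, Dmac2, an assembly factor of respiratory complex I, had 29.7, 46, 41.3, 43.9 and 31.6 CPM in TNF-CCI, against 47.1, 56.9, 52, 50.3 and 74.3 CPM in TCF-CCI (-0.54 ± 0.15). Cntn3, an adhesion molecule of neurons, differed by -0.58 ± 0.16. Exph5, an effector of the vesicle GTPase Rab27, differed by -1.11 ± 0.32 and Noxa1, an activator of NADPH oxidase, by -1.10 ± 0.42, both without overlap. The other loci that were lower by the naming rule, LOC120099835, LOC102549342, LOC120096895, LOC108352451 and LOC120102802, had log2 fold changes of -1.04, -1.06, -1.10, -1.86 and -1.27. LOC120096895, LOC102549342 and Dmac2 lie close together on chromosome 1, at 80961655 to 80980582, 80984441 to 81119329 and 81128760 to 81134810. Whether they vary independently of each other was not tested.

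Transcripts of the mitochondrial chromosome were lower in TNF-CCI, though none passed the edgeR test. All 24 tested mitochondrial tRNA and rRNA genes lay below 0, 9 had an unadjusted p under 0.05 and the median was -0.68. Trnh, the mitochondrial histidine tRNA, had 38.5, 52.4, 33.4, 30.5 and 39.1 CPM in TNF-CCI, against 71.7, 81.9, 62.1, 98.8 and 78.3 CPM in TCF-CCI (-1.02 ± 0.28, edgeR adjusted p = 0.817). Its groups did not overlap, and voom called it at an adjusted p of 0.0283. The 2 rRNA genes set the mitochondrial rRNA share given above, and with that share as a covariate the median was -0.11. Over Vehicle-CCI the median was -0.74 for TNF-CCI and -0.01 for TCF-CCI. Mitochondrial mRNAs were not analysed here, and nuclear genes of oxidative phosphorylation had a median of 0.10.

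Some lists hold marker genes of neighbouring tissue, and their values can rest on 1 library. The choroid plexus secretes cerebrospinal fluid and lies beside the hippocampus. Its 12 genes had a median of -0.89, but their summed level was 122 to 257 CPM in TNF-CCI and 114 to 183 CPM in TCF-CCI 1, 2, 3 and 5, against 938 CPM in TCF-CCI 4. Ttr, the thyroid hormone carrier that defines it, had 11, 22.2, 33.4, 3.35 and 71.2 CPM in TNF-CCI, against 8.71, 11.7, 9.75, 476 and 6.71 CPM in TCF-CCI. Without TCF-CCI 4 the list's median was 0.57. Kl, the co-receptor klotho, Prlr, the prolactin receptor, and Sostdc1, a secreted antagonist, followed Ttr, with 21.5, 32.4 and 7.57 CPM in TCF-CCI 4. Cortical genes had a median of -0.07 and 3 of 13 at an unadjusted p under 0.05, all lower. Cux2, of upper layers, had 34, 26.2, 48.5, 53.5 and 29.2 CPM in TNF-CCI, against 54.8, 45.9, 48, 53.5 and 69.2 CPM in TCF-CCI (-0.50 ± 0.17), and Tbr1, of deep layers, differed by -0.50 ± 0.21, whereas Rorb, of the input layer, differed by 0.08 ± 0.21. Thalamic genes had a median of 0.19, or 0.01 without TNF-CCI 1. In that list Zic1 stood at 0.81 ± 0.37, or 0.36 without TNF-CCI 3, its highest library at 31.2 CPM, Prkcd at 0.76 ± 0.41, Slc17a6 at -0.30 ± 0.53 and Tcf7l2 at 0.01 ± 0.37. The part of dissection in any of the results was not tested.

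Among the 12 genes of smallest p that were higher in TNF-CCI, 5 rested on 1 library. Asb15, an ankyrin protein of muscle, had 40.9 CPM in TNF-CCI 2 and at most 0.546 CPM in the other 9 libraries. Lox, the enzyme that crosslinks collagen, had 157 CPM in TNF-CCI 1 and at most 2.97 CPM in the other 9. Dbh, which makes noradrenaline, and Bpifb4, a secreted lipid-binding protein, had 21.9 and 10.3 CPM in TNF-CCI 1, against at most 1.21 and 0.87 CPM elsewhere, and Timp1 was the fifth. Over all 16928 genes with a mean of at least 1 CPM, 42 had 1 library at 5 times the next or more, 25 of them in TNF-CCI 1 and 13 in TCF-CCI 4.

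Fam111a, a protease that acts in DNA replication, was split within TNF-CCI. It had 1.24 and 0.954 CPM in TNF-CCI 1 and 2 and 26.7, 35.1 and 17.7 CPM in TNF-CCI 3 to 5, against 0.828, 0.668, 0.456, 1.7 and 0.598 CPM in TCF-CCI (4.26 ± 1.08, edgeR adjusted p = 0.817). The high TNF-CCI libraries are those whose titles carry a number above 70. TD-CCI 5, the only other library of the series with such a number, had 44.6 CPM under a different preparation. LOC120097130, a receptor V segment in RefSeq on chromosome 15, was instead low in every TNF-CCI library and split within TCF-CCI. It had 0.366, 0.281, 0.0526, 0.102 and 0 CPM in TNF-CCI, against 6.52, 4.7, 4.39, 0.0908 and 4.78 CPM in TCF-CCI (-4.68 ± 1.04, edgeR adjusted p = 0.556). It was under 0.5 CPM in 5 of 5 TNF-CCI libraries and 1 of 5 TCF-CCI libraries, and likewise in 1 of 5 TD-CCI, 1 of 5 Vehicle-CCI and 0 of 5 Vehicle-sham libraries.

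**Figure D5:**
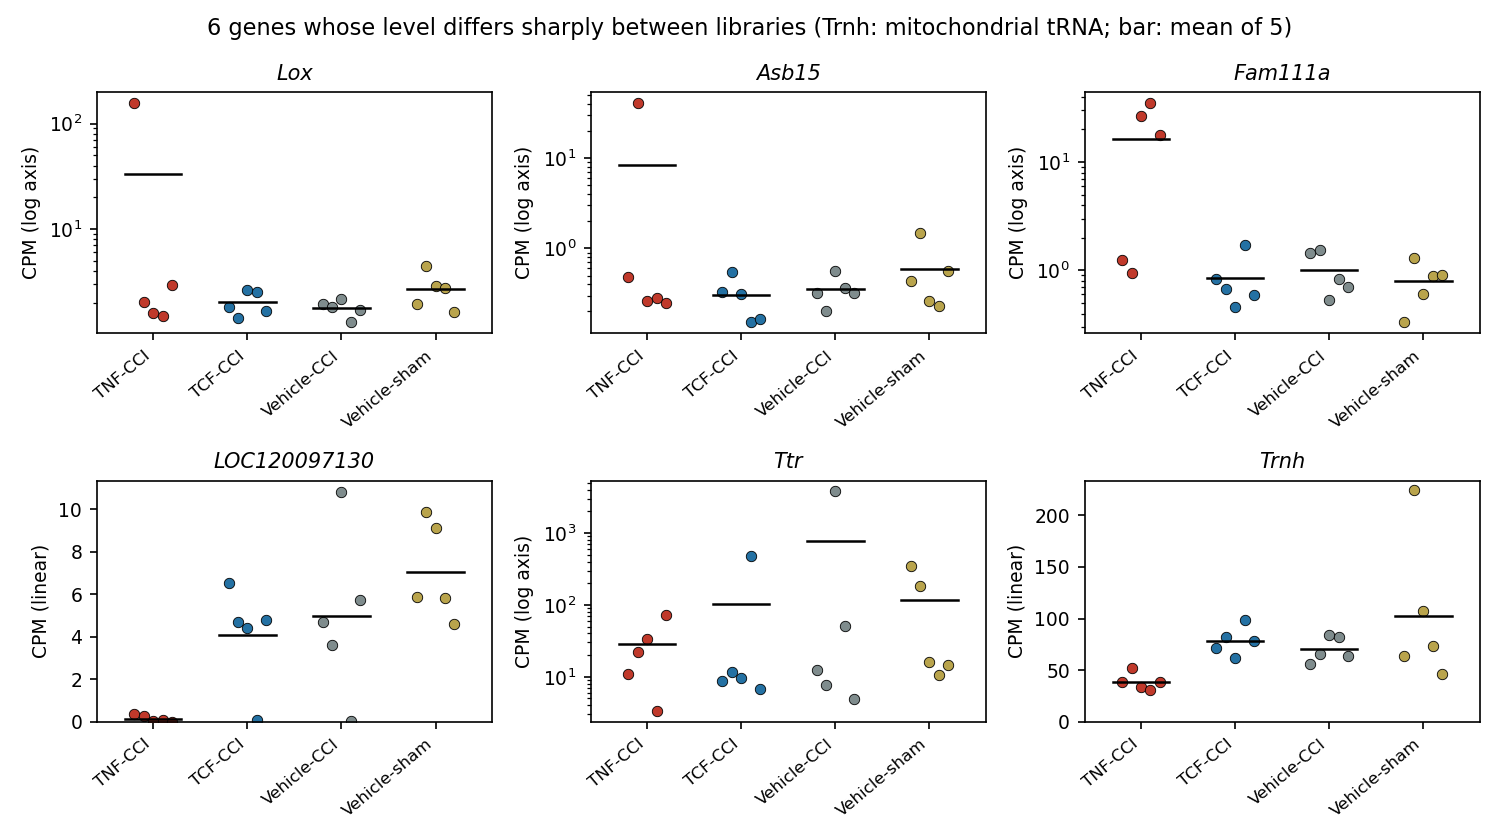
CPM of 6 genes in every library of TNF-CCI, TCF-CCI, Vehicle-CCI and Vehicle-sham (horizontal axes), each point 1 library and each bar the mean of 5, where Lox, Asb15, Fam111a and Ttr have a log axis. Lox and Asb15 are high in 1 TNF-CCI library each, Fam111a in 3, and Ttr in 1 TCF-CCI library.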

How the data were processed

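Poly(A) RNA of rat hippocampus was sequenced in 25 libraries, 5 in each of 5 groups. The authors deposited a table of raw counts per gene with positions on mRatBN7.2. STAR, Salmon, featureCounts and DESeq2 are named in the submitters' processing notes, with no versions, and whether counting used strand is not stated. The authors' own comparisons were not used, since none sets TNF-CCI against TCF-CCI. Of 34322 genes, 7 had empty cells and were dropped.

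Counts were analysed with edgeR 4.0.16 in R 4.3.3: filterByExpr by group, TMM factors, a robust quasi-likelihood fit of all 25 libraries with 1 mean per group, and the contrast TNF-CCI minus TCF-CCI. Benjamini-Hochberg adjustment ran over 21064 genes at a threshold of 0.05. CPM values are TMM-scaled. The procedure was tested on simulated data. Depth and mitochondrial rRNA share were compared by exact permutation. Replicate pairs differed by more than counting noise (chi-square per degree of freedom 19.7 to 221), so none was merged. Gene lists are described by counts and medians, without a test. Alternatives used DESeq2 1.42.0, limma 3.58.1, other filters, scalings, covariates and left-out libraries.

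Comparison, lists and tests were chosen with earlier results of these data known, and the mitochondrial list after its values were seen. Named genes are the 12 of smallest p in each direction at a mean of at least 1 CPM (since fewer than 10 passed the test), Gfap, Cd68 and Bdnf, up to 4 per list (defining genes and the 2 of smallest p), and in each direction the 6 non-overlapping genes of largest fold. Irf7 and Ifit3 are named only for their promoters. Cd4 was named after its values were seen. A result that the naming rule gave is not reported here.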

Additional observations from a re-analysis of the deposited data

Results flagged for a closer look

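In a group of 5, a library was singled out when its gap to the next exceeded 0.710 of the group's range, which chance does for about 1 in 20 groups. TNF-CCI 2 stood apart in its mitochondrial rRNA share (10.9%). TNF-CCI 1 stood apart for Lox (157 CPM), Bpifb4 (10.3), Timp1 (62.3), Dbh (21.9), Bdnf (67.2), Cd74 (116), Arc (237) and Npy (94.8), all high. TNF-CCI 2 stood apart for Asb15 (40.9 CPM) and LOC108352451 (4.49), both high, and for Glul (636), low, and TNF-CCI 5 for Serpina3n (7.03), high. TCF-CCI 4 was the high library for Ifit1 (3.15 CPM), Mgp (12.6), Ttr (476), Kl (21.5), Prlr (32.4) and Sostdc1 (7.57), and TCF-CCI 1 for Cd8a (0.497). Of these 19 gene values, 8 belong to TNF-CCI 1 and 6 to TCF-CCI 4. The rule was applied to 99 named genes in both groups, so some would be singled out by chance. The rate of 1 in 20 need not hold for genes that were named for a small p.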

How the results depend on the processing

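The main fit did not pair libraries by replicate number. The correlation of same-numbered libraries' deviations from their group means ran from -0.05 to 0.38. Its median was 0.21, against -0.07 for other pairs, and 2 of 5 TNF-CCI libraries correlated best with their own number. Whether the numbers mark pairs is not stated. With the replicate number as a block 0 genes were called and 1337 had an unadjusted p under 0.05.

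Genes called were 0 in edgeR and 0 at an adjusted p under 0.10, against 6 with DESeq2, 12 with voom and 19 when only libraries numbered up to 70 were kept (TNF-CCI 1 and 2 against TCF-CCI, 18 higher, 13 of the 19 at least 5 times the next of the 10 libraries in 1 library). Every other setting called 0 at an adjusted p under 0.05, among them counts thinned to the lowest total. Vehicle-sham 2 and 3 had mitochondrial rRNA shares of 25.6 and 17.3%, and they enter the spread of the main fit. Without them 1 gene had an edgeR adjusted p under 0.10, and without TNF-CCI 2 there were 2. Genes at an unadjusted p under 0.05 were 1079, against 2150 with the mitochondrial rRNA share as covariate, 2618 with voom, 516 without TNF-CCI 1 and TCF-CCI 5, 1684 without Vehicle-sham 2 and 3, and 689 to 1622 with any 1 of the 10 libraries left out (689 without TCF-CCI 5, 708 without TCF-CCI 2, 716 without TNF-CCI 1, 1622 without TNF-CCI 2). With 1 library left out, the difference in total counts ran from 5740000 to 8160000 and that in mitochondrial rRNA share from -4.21 to -2.18 percentage points, with p = 0.00794 (exact permutation) for the share without TNF-CCI 2.

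List medians moved by more than the spread between libraries as follows. With only libraries numbered up to 70 they were 0.74 for neutrophils, -0.33 for synaptic vesicle, -0.04 for CA2 and CA3, 0.31 for dentate granule and -0.27 for cortical genes. With the mitochondrial covariate they were -0.04 for CA2 and CA3, 0.03 for neurotrophins, 0.29 for ribosomal proteins and -0.11 for mitochondrial tRNA and rRNA. Heat shock genes, at 0.00, were 0.17 with voom, 0.21 without TNF-CCI 1 and TCF-CCI 5, and -0.06 to 0.18 with 1 library left out. Choroid plexus ran from -1.15 to 0.57 with 1 library left out.

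Signs of 13 of 99 named genes turned. Without TNF-CCI 1 and TCF-CCI 5 the log2 fold changes were -0.05 for Lox, -0.11 for Dbh, -0.13 for Cd74, -0.12 for Il1b, -0.05 for Tnf, 0.03 for Gad1, -0.09 for Col1a2 and -0.16 for Tcf7l2. Dbh, Il1b and Tcf7l2 turned without TNF-CCI 1. With voom they were -0.07 for Il1b, -0.26 for Tnf, 0.30 for Ttr and -0.12 for Tcf7l2. Ttr, Kl and Sostdc1 turned without TCF-CCI 4, and Col1a2 and Tcf7l2 without TNF-CCI 5 or TCF-CCI 5. With only libraries numbered up to 70, Tmem119 was -0.19 and Gria2 0.06. With 1 library left out, the log2 fold changes of these genes ran from -0.05 to 3.49 for Dbh, -0.03 to 0.43 for Il1b, -0.02 to 0.42 for Col1a2, -2.55 to 1.61 for Ttr, -2.16 to 0.76 for Kl, -2.15 to 0.40 for Sostdc1 and -0.08 to 0.15 for Tcf7l2. The cause was not tested. The settings without TNF-CCI 1 and TCF-CCI 5, without the 2 sham libraries and by title number were chosen after seeing the data.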

Other observations

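The 4 libraries whose titles carry a number above 70 are TNF-CCI 3, 4 and 5 and TD-CCI 5. After Fam111a had been seen, all 21064 tested genes were searched for those with these 4 libraries wholly above or wholly below the other 21. There were 15 above and 37 below, and 9 of the 15 and 8 of the 37 had an unadjusted p under 0.05 in TNF-CCI versus TCF-CCI. The search itself placed TNF-CCI 3, 4 and 5 outside the range of all TCF-CCI libraries. A small p in that comparison is therefore partly built in, and no conclusion is drawn from these counts. Fam111a had 17.7 to 44.6 CPM in the 4 libraries and 0.331 to 1.7 CPM in the other 21. LOC100912642, a protein-coding locus, had 3.24 to 7.4 CPM in the 4 and 0.0582 to 0.911 CPM in the other 21. Vom2r44, of the vomeronasal receptor family, had 1.11 to 1.39 CPM in the 4 and 6.37 to 34.4 CPM in the other 21. LOC108353033 had no count in the 4 and 0.133 to 1.14 CPM in the other 21. Tmem119 had 10.5 to 14.5 CPM in the 4 and 2.91 to 10.1 CPM in the other 21. What the title numbers mark is not stated.

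Further lists had these median log2 fold changes, against 0.02 over all genes. Red cell globin genes had a median of 0.42 (8 of 8 above 0, 0 at an unadjusted p under 0.05), or 0.04 without TNF-CCI 1. Their summed level was 138 to 620 CPM in TNF-CCI and 106 to 481 CPM in TCF-CCI. Proliferation genes stood at 0.29 (13 of 14 above 0), border macrophage genes at 0.27 (8 of 9, or 0.11 without TCF-CCI 5), cell death genes at 0.27 (13 of 15) and glucocorticoid targets at 0.25 (9 of 14). Motile cilia genes stood at 0.22 (12 of 18), or -0.12 without TNF-CCI 3, and endoplasmic reticulum chaperones at 0.18 (13 of 18). Oligodendrocyte precursor genes had a median of 0.16 (10 of 11), neutrophil genes 0.14 (4 of 8, or -0.16 without TNF-CCI 2), neurogenesis genes 0.13 (7 of 11), endothelial genes 0.12 (13 of 16), mural cell genes 0.12 (8 of 11) and ribosomal protein genes 0.10 (16 of 22). CA1 genes stood at 0.09, cholesterol synthesis genes at 0.04, GABA-A receptor genes at -0.02 and RNA splicing genes at -0.10.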
